A study of Homo sapiens with 12 samples.

Results

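IL10, SOCS1, SOCS2 and SOCS3 encode a secreted brake on inflammation and 3 intracellular brakes on cytokine signalling, and they were described here across 12 RNA-seq libraries of macrophage-like cells. The 4 genes were taken by symbol from the genes that the authors listed as changed by lipopolysaccharide (LPS) in wild-type or in mutant cells. Of the 4, 3 were among the 3281 listed genes (IL10, SOCS1 and SOCS3), and all 3 stood in both of the authors' deposited tables, which share 1562 genes. SOCS2 was in neither table and was not analysed here. The cells were THP-1, a human monocytic leukaemia line, carrying either wild-type NFKB1 (WT) or the S80A form of NFKB1, the gene of the NF-κB subunit p50, in which a serine is replaced by alanine. All 4 groups had received the phorbol ester PMA at 25 ng/ml for 72 hr, which drives the line towards a macrophage state, and had then rested for 4 days. Each genotype was sampled as 3 libraries without LPS (0 hr) and 3 libraries after 3 hr with LPS, a bacterial outer membrane component sensed by TLR4, at 10 ng/ml. The labels do not say how the S80A cells were made, whether they are a single clone or whether the replicates were separate cultures. The p-values therefore reflect no more than the spread among these libraries, which may be technical, and the S80A form and the line that carries it cannot be told apart.

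IL-10 is made by activated macrophages and acts back on them through the receptor chains IL10RA and IL10RB, the kinases JAK1 and TYK2 and the transcription factor STAT3. SOCS proteins are induced by cytokines through STAT factors and close the loop. SOCS1 blocks JAK kinases and is a main restraint on interferon signalling, SOCS3 binds the gp130 chain that IL-6 uses, and SOCS2 restrains growth hormone signalling. In macrophages LPS induces IL10, SOCS1 and SOCS3 as part of the same response that induces inflammatory cytokines.

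Values are given as scaled reads, which are a gene's read count over the size factor of its library. Reads on the listed genes ranged from 1924562 to 5789918 per library, and these totals leave out all other genes. Genotypes separated on the second principal component (17.6% of the variance), where S80A replicate 1 scored 16.7 at 0 hr and 16.9 at 3 hr, between the WT libraries (-40.4 to -25.0) and the other S80A libraries (32.7 to 46.7), so results are also given without it. Of 14 macrophage markers, CD14, FCGR3A and CD163 were listed, and their summed level spanned 3735 to 5700 scaled reads in WT and 3326 to 7372 in S80A cells at 0 hr, and 1716 to 2482 and 2058 to 2570 at 3 hr. The sum hides CD163, which was lower in S80A cells at 0 hr by -1.11 log2 (limma adjusted p = 0.0452). CD163 was listed for WT cells only, through a fall with LPS that can by itself favour this difference. CD14 and FCGR3A are not given singly. Of 8 markers of undifferentiated myeloid precursors, CD34, GFI1 and CEBPE were listed. Their summed level was 2269 to 2575 in WT and 466 to 799 in S80A cells at 0 hr, and 634 to 926 and 210 to 379 at 3 hr, so that the sum moved with genotype. With LPS these markers went opposite ways. CD34 rose (3.61 log2 in WT, 3.90 in S80A cells), while GFI1 (-1.62 and -1.15) and CEBPE (-2.85 and -1.87) fell. CD34 had no reads in both WT replicates 1 and 2 and in S80A replicate 1 at 0 hr. The part that the genotype difference of this precursor sum plays in the results was not tested. Of 8 T cell markers IL7R was listed (88.5 to 113 and 165 to 366 scaled reads at 0 hr, and 5827 to 9955 and 9487 to 19675 at 3 hr, in WT and S80A cells). Of 5 B cell markers CD79B and PAX5 were listed, with sums of 25.2 to 207 over all libraries, and of 4 NK cell markers none was.

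The proximal promoters of IL10 and SOCS1 are shown because these 2 genes differed in opposite directions between genotypes after LPS. Each is the 250 bases before the RefSeq start (GRCh38.p14), written 5′ to 3′ on the gene's strand, with motif matches in capitals. IL10 lies at chr1:206772495-206772744 on the minus strand, and SOCS1 at chr16:11256205-11256454 on the minus strand.
IL10: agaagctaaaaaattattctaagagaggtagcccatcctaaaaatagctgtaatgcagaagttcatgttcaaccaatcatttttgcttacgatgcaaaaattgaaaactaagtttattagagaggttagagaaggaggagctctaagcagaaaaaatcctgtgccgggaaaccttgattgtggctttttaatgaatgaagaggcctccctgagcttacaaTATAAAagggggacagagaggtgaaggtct
SOCS1: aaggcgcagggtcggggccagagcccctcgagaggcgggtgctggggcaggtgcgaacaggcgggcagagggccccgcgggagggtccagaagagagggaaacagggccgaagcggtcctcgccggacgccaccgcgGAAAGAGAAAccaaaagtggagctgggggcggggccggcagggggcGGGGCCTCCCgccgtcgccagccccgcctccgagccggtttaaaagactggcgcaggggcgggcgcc

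Both strands were searched for 5 motifs: the NF-κB (κB) motif, TTCNNNGAA (the STAT motif), the core of the interferon-stimulated response element, TGANTCA (the AP-1 motif) and TATAAA (the TATA box). No 2 matches overlapped. The IL10 window held a TATA box from 30 to 25 bases before the start, a motif found in 10.7% of 35116 RefSeq windows of the same length. The SOCS1 window held a κB match from 67 to 58 bases before the start (9.96% of windows) and a match to the interferon-stimulated core from 113 to 104 bases before it (3.02% of windows). The other motifs searched, found in 6.57% of windows each, had no match in either window, which says only that these letters are not there. The windows differed in base composition, with 38.4% G and C in IL10 and 74.0% in SOCS1 against a median of 58.0% over all windows. The outermost RefSeq start of SOCS3 lies upstream of the GENCODE start, and its window held none of the motifs.

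In GENCODE release 29 on GRCh38, IL10 lies on chromosome 1 from 206767602 to 206772494 with 2155 exonic bases. SOCS1 lies on chromosome 16 from 11254405 to 11256200 with 1796 exonic bases, and SOCS3 on chromosome 17 from 78356778 to 78360077 with 2734. All 3 are on the minus strand. The span of SOCS1 overlaps that of RMI2 on the opposite strand, and whether their exons overlap was not checked. The strand setting of the authors' counting is not given in the sources used here. Whether reads of the 2 genes were kept apart is therefore not known. RMI2 was in neither table. IL10 sits in a cluster of its own family on chromosome 1, with IL19 26376, IL20 92860 and IL24 124949 bases away, none of which was in a table. Of 11 protein-coding genes within 250 kb of IL10, 3 were in a table (RASSF5, PIGR and FCAMR, named after their values were seen). Of 7 such neighbours of SOCS1 none was listed, and of 11 of SOCS3 TNRC6C was, also named after the values were seen. Over all genes that the authors tested, 3281 of 17486 were listed, and nothing is read from the counts of neighbours.

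IL10 rose with LPS in both genotypes and rose much further in S80A cells. At 0 hr IL10 was at 30.3, 27.3 and 40.3 scaled reads in the 3 WT libraries and at 26.9, 12.4 and 9.45 in the S80A libraries. After LPS it was at 191, 96.5 and 132 in WT and at 426, 633 and 474 in S80A cells. All 3 S80A libraries lay below all WT libraries before LPS, by a narrow gap between S80A replicate 1 and WT replicate 2, and all 3 lay far above them after it. How many of all listed genes separate in this way was not counted, so nothing is read from it, here or for SOCS1 and SOCS3 below. These values rest on 119 and 52 reads over the WT and S80A groups at 0 hr and on 379 and 1325 at 3 hr. Mean IL10 went from 32.7 ± 6.81 to 140 ± 48.0 in WT cells (SD, n = 3), a 4.28-fold rise. In S80A cells mean IL10 went from 16.2 ± 9.33 to 511 ± 108, a 31.4-fold rise.

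SOCS1 showed the opposite order of genotypes after LPS. At 0 hr SOCS1 was at 6.93, 5.63 and 12.9 scaled reads in WT libraries and at 4.98, 33.4 and 28.3 in S80A libraries. The S80A group at 0 hr was therefore divided, with replicate 1 below every WT library and replicates 2 and 3 above them, on 5, 43 and 27 reads. After LPS SOCS1 was at 554, 483 and 700 in WT and at 298, 381 and 236 in S80A cells, so that all 3 S80A libraries lay below all WT libraries. Mean SOCS1 went from 8.49 ± 3.88 to 579 ± 111 in WT cells (SD, n = 3), a 68.2-fold rise. In S80A cells it went from 22.2 ± 15.1 to 305 ± 72.5, a 13.7-fold rise.

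SOCS3 had the largest rise of the 3 genes and a similar one in both genotypes. At 0 hr SOCS3 was at 52.0, 45.0 and 44.4 scaled reads in WT libraries and at 114, 81.4 and 76.6 in S80A libraries. After LPS it was at 8910, 6941 and 6872 in WT and at 13085, 14266 and 9168 in S80A cells. S80A libraries lay above all WT libraries at both times, narrowly so at 3 hr, where S80A replicate 3 was close to WT replicate 1. Mean SOCS3 rose from 47.1 ± 4.20 at 0 hr by 161-fold in WT cells and from 90.5 ± 20.1 by 134-fold in S80A cells (SD, n = 3).

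**Figure D1:**
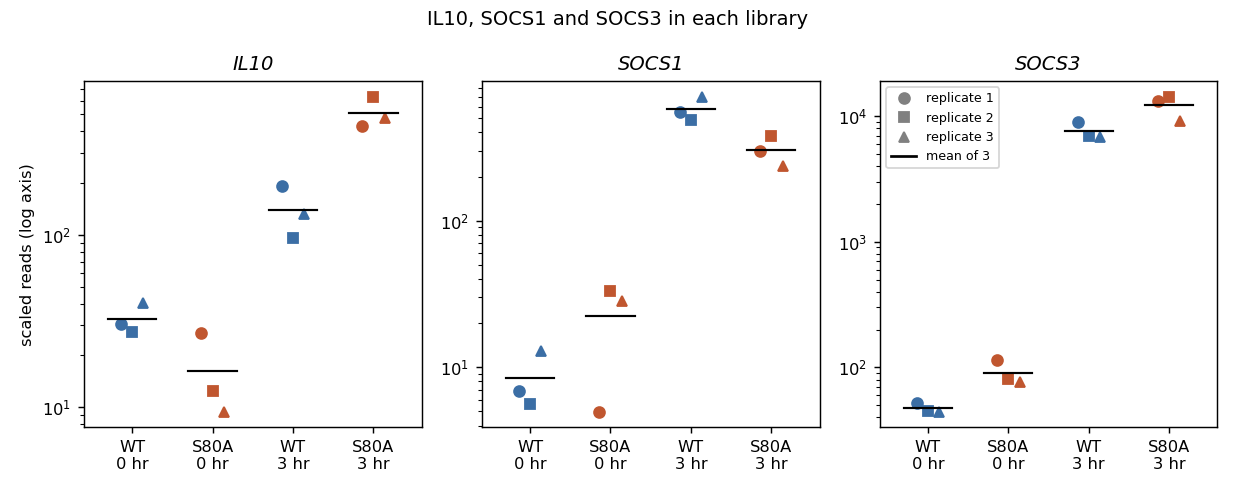
Scaled reads (log axis) of IL10, SOCS1 and SOCS3 in each of the 12 libraries, by genotype and time; point shapes are replicates and lines are means of 3. After LPS the S80A libraries of IL10 (426 to 633) lie above the WT libraries (96.5 to 191), those of SOCS1 (236 to 381) lie below (483 to 700), and SOCS1 in S80A replicate 1 at 0 hr lies apart at 4.98.

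In the authors' deposited table, all 3 genes were listed as rising in each genotype, against 8.24% of 17486 tested genes called as rising in WT and 8.67% in S80A cells. Listing in these tables is how the genes came to be measured, so nothing is read from that count. The authors' deposited table gave IL10 a log2 fold change of 2.02 in WT (adjusted p = 3.22e-08) and 4.79 in S80A cells (5.42e-39). It ranked IL10 at position 801 of the 1441 rising genes in WT and at 139 of the 1516 in S80A cells. For SOCS1 the authors' deposited table gave 5.71 in WT and 3.57 in S80A cells, at positions 76 and 302. SOCS3 had 7.21 and 6.97 in the authors' deposited table and position 35 in both.

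The next comparison asks whether the LPS response, 3 hr against 0 hr, differed between the S80A and WT cells, and it takes in the levels at both times. A limma interaction term, fitted to log2(scaled reads + 1) with the 1562 genes that both tables list, was the test, and a call was an adjusted p under 0.05. IL10 was called with a larger response in S80A cells, as were 2.82% of the genes tested, and no member was called with a smaller one, as were 2.18%. The IL10 response was larger in S80A cells by 2.97 ± 0.53 log2 (SE, 95% interval 1.82 to 4.13, limma adjusted p = 0.0071), and its p ranked at 21 among the 1562 genes. For IL10 this difference combines the 3 hr difference (1.90 log2) with the lower S80A level at 0 hr (-1.08). With the replicate number as a block, 130 genes in all were called for the response in place of 78, 70 of them with a larger response in S80A cells, and IL10 had an adjusted p of 0.00673. It stayed called under all 22 alternatives run, with differences of 2.64 to 3.51 log2 and adjusted p from 1.18e-05 to 0.0246, and without S80A replicate 1 at both times the difference was 3.51 (adjusted p = 0.000808).

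The SOCS1 response differed by -1.95 ± 0.78 log2, S80A minus WT (SE, 95% interval -3.63 to -0.27), and this did not pass (limma adjusted p = 0.173, unadjusted p = 0.0266). Without S80A replicate 1 at 0 hr the SOCS1 difference was -2.75 with an adjusted p of 0.00346, without it at both times it was -2.75 (0.00479), and by DESeq2 it was -2.32 (0.0148), while over all 22 alternatives the adjusted p ran from 0.00346 to 0.373. The SOCS3 response differed by -0.24 ± 0.32 log2 (SE, 95% interval -0.92 to 0.44, limma adjusted p = 0.809). That interval leaves room for a SOCS3 response that is smaller in S80A cells by 0.92 log2 or larger by 0.44.

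**Figure D2:**
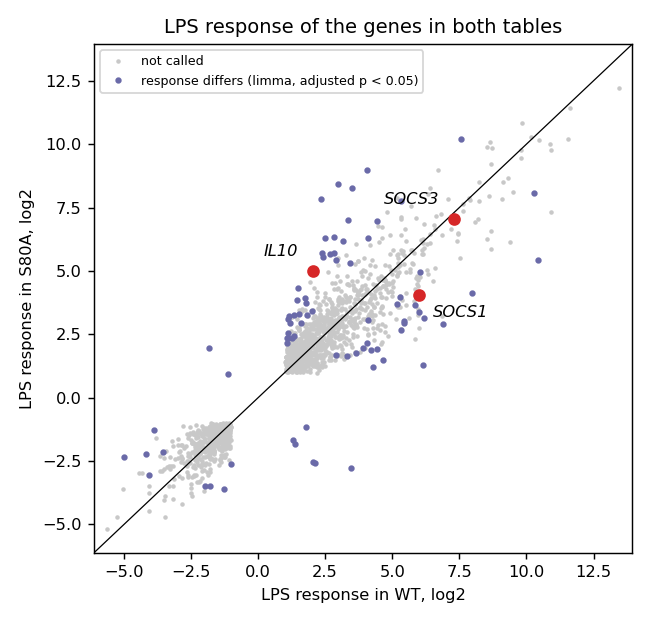
LPS response (3 hr minus 0 hr, log2 of scaled reads + 1) in WT cells (x axis) against S80A cells (y axis) for the 1562 genes in both tables; the line marks equal responses, and purple points are genes whose response differed by limma. IL10 lies above the line among the called genes, SOCS1 lies below it and was not called, and SOCS3 lies near the line.

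Before LPS the genotypes were compared by limma over all 3281 listed genes. Genes listed for 1 genotype only entered through their LPS change there, which can by itself favour a genotype difference. The shares over all listed genes include them, while the 3 members were listed for both genotypes. At 0 hr, 1 of the 3 genes was higher in S80A cells, SOCS3, against 20.3% of listed genes, and none was lower, against 10.7%. SOCS3 was higher in S80A cells by 0.91 ± 0.22 log2 (SE, 95% interval 0.36 to 1.46, limma adjusted p = 0.0294). The call was lost with upper quartile scaling (0.69 log2, adjusted p = 0.0938), with edgeR (0.71, 0.0674) and without each of WT replicates 1, 2 and 3 and S80A replicate 2 (0.87 to 0.98, adjusted p from 0.0664 to 0.103). IL10 differed by -1.08 ± 0.42 log2 (SE, limma adjusted p = 0.105) and SOCS1 by 1.01 ± 0.75 (0.344). Without S80A replicate 1 both passed, with -1.49 for IL10 (limma adjusted p = 0.0162) and 1.82 for SOCS1 (0.0242), and IL10 also passed in a fit of all 12 libraries (-1.08, 0.0396).

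After LPS all 3 genes differed between genotypes, 2 of them higher in S80A cells, against 30.1% of listed genes, and 1 lower, against 17.7%. IL10 was higher in S80A cells by 1.90 ± 0.30 log2 (SE, 95% interval 1.21 to 2.58, limma adjusted p = 0.00186), a 3.65-fold ratio of means. Under 15 alternatives the IL10 difference at 3 hr ranged from 1.498 to 2.15 log2 and was called in each. SOCS1 was lower in S80A cells, at -0.93 ± 0.25 log2 (SE, 95% interval -1.51 to -0.36, limma adjusted p = 0.0166), with 1.90-fold more in WT cells. SOCS3 was higher by 0.67 ± 0.22 log2 (SE, 95% interval 0.17 to 1.17, limma adjusted p = 0.0354), a ratio of 1.61.

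Of these, the SOCS1 and SOCS3 calls at 3 hr were lost under some alternatives. SOCS1 was at -0.79 without WT replicate 3 (adjusted p = 0.0776) and at -0.93 in a fit of all 12 libraries (0.17). SOCS3 was at 0.27 with upper quartile scaling (adjusted p = 0.30), at 0.47 by edgeR (0.0931) and at 0.67 without a trend in the spread (0.0616), and leaving out WT replicate 2 or 3 or S80A replicate 1 or 2 gave 0.54 to 0.61 (0.0572 to 0.127). Over all listed genes the median difference at 3 hr was 0.19 log2 as deposited, and upper quartile scaling moved it by -0.39 and TMM by -0.18. Of the calls at 3 hr 62.9% were higher in S80A cells as deposited, 40.9% with upper quartile scaling and 52.3% with TMM, and at 0 hr 65.6%, 49.2% and 50.6%. Relative to that median IL10 was at 1.71 as deposited, 1.70 with upper quartile scaling and 1.65 with TMM, SOCS1 at -1.12, -1.13 and -1.15, and SOCS3 at 0.48, 0.47 and 0.46.

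**Figure D3:**
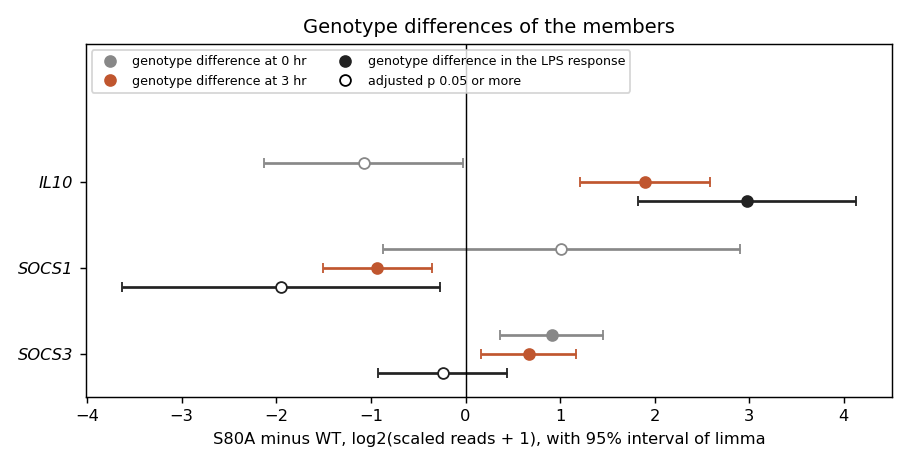
Differences S80A minus WT in log2(scaled reads + 1) for the 3 genes at 0 hr (grey), at 3 hr (orange) and in the LPS response (black), with limma 95% intervals; filled points have an adjusted p under 0.05. The 3 hr difference is positive for IL10 (1.90) and SOCS3 (0.67) and negative for SOCS1 (-0.93), and of the responses IL10 alone is filled (2.97).

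**Figure D4:**
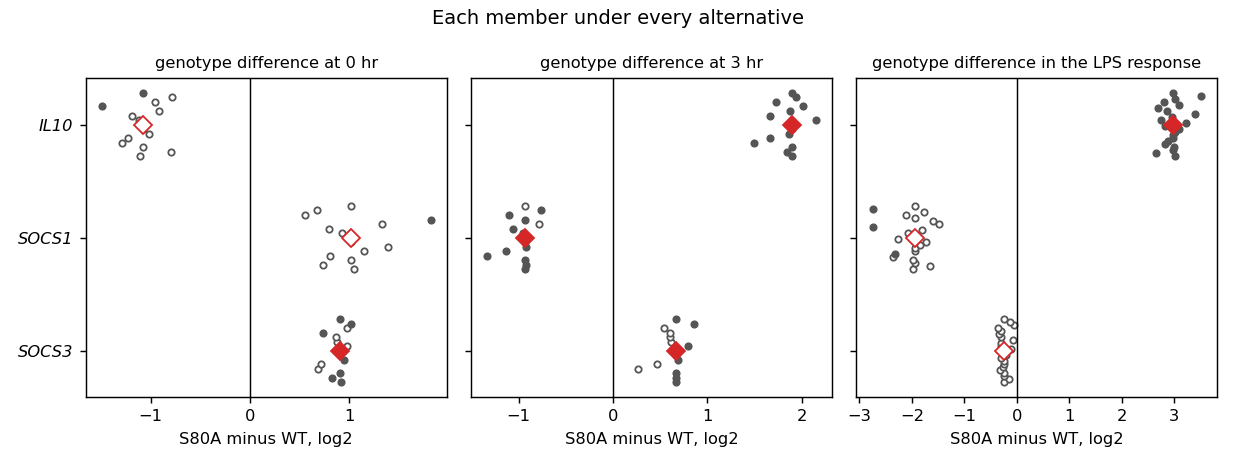
The same differences for each gene (x axis, log2) under every alternative run, with the main value as a red diamond and filled points where the adjusted p was under 0.05. IL10 is filled throughout at 3 hr and in the LPS response, while SOCS3 at 3 hr spans 0.27 to 0.86 with filled and open points, and no difference of the 3 genes changes sign.

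Levels can be set against each other per kilobase of exon. Before LPS in WT cells SOCS3 (17.2 ± 1.54 scaled reads per kilobase, SD, n = 3) and IL10 (15.2 ± 3.16) overlapped, and SOCS1 was at 4.73 ± 2.16. In S80A cells at 0 hr the levels per kilobase were 33.1 ± 7.34 for SOCS3, 12.4 ± 8.43 for SOCS1 and 7.54 ± 4.33 for IL10, and the last 2 overlapped. After LPS in WT cells SOCS3 was at 2770 ± 423 per kilobase, SOCS1 at 322 ± 61.7 and IL10 at 64.9 ± 22.3, with no overlap between any of them. In S80A cells after LPS SOCS3 was at 4453 ± 976 per kilobase, while IL10 (197.7 to 293.6) and SOCS1 (131.5 to 212.0) overlapped. Library by library after LPS, SOCS1 was above IL10 per kilobase in 3 of 3 WT libraries and below it in 3 of 3 S80A libraries.

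The genes whose pattern was most like each member were taken among 1641 listed genes of at least median level, by Pearson r of log2 values over the 12 libraries. These values share their libraries and the LPS contrast, and are descriptive. For IL10 they were NPLOC4 (r = 0.98), PI4KB (0.98) and ZNF189 (0.98), all of which were lower in S80A than in WT cells at 0 hr and higher at 3 hr on average. For SOCS1 they were NFKB2 (0.98) and RELB (0.98), subunits of the noncanonical NF-κB dimer, and TNFRSF9 (0.98). For SOCS3 they were HIVEP2, BLZF1 and JUNB, an AP-1 subunit (r from 0.996 to 0.997).

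After the mean of each time was subtracted, which leaves genotype, the genotype difference in the LPS response and replicate, the most alike genes changed. For IL10 they were MPND (r = 0.92), ABTB2 (0.91) and KCNN2, a potassium channel gene (0.91). ABTB2 reached 2638 scaled reads in WT and 7879 in S80A cells at 3 hr, and KCNN2 1262 and 4055. For SOCS1 they were NFKB2 (0.88), NRIP3 (0.84) and SHROOM3 (0.84), with NFKB2 at 13954 in WT and 9007 in S80A cells at 3 hr. For SOCS3 they were GRAMD1B (0.95), FAM214B (0.92) and BID, a pro-apoptotic BCL2 family gene (0.91). On the same scale IL10 and SOCS1 had an r of -0.68 with each other, IL10 and SOCS3 0.24, and SOCS1 and SOCS3 -0.05.

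JAK1 and STAT5A were higher in S80A cells after LPS, and the receptor chain IL10RA was not called. JAK1 was listed for the S80A line only, through its rise with LPS there, which can by itself favour this difference. Of 13 receptor, JAK and STAT genes, 5 rose and none fell in WT cells in the authors' deposited table, and 5 rose and none fell in S80A cells (4 in both tables). The median log2 fold change of those listed was 2.32 and 2.24, against 1.37 and 1.30 over all listed genes. Over all 17486 tested genes 5.11% were called as falling in WT and 5.67% in S80A cells. IL10RA, the ligand-binding chain, went from 2669 ± 426 to 21223 ± 2061 scaled reads (SD, n = 3) in WT, and in the S80A line it went from 2437 ± 590 to 17563 ± 5965. At 3 hr IL10RA differed by -0.33 log2 (limma adjusted p = 0.326). STAT5A, which many cytokine receptors activate, was higher in S80A cells at 3 hr by 0.95 ± 0.15 log2 (SE, limma adjusted p = 0.00201). JAK1, the kinase bound to IL10RA, was higher by 1.36 ± 0.21 (limma adjusted p = 0.00185), at 4991 ± 1154 against 1913 ± 101 scaled reads, and it was higher at 0 hr by 0.53 (0.027). STAT2, a factor activated by type I interferon, differed by -0.59 (limma adjusted p = 0.133). In all, 2 of 6 listed members were higher in S80A cells at 3 hr and none lower, against 30.1% and 17.7% of all listed genes, with a median difference of -0.45 against 0.19. For the LPS response none of 4 tested was called, where 2.82% of all genes tested were called larger and 2.18% smaller.

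Among other inhibitors of the same signals, PTPN6 was lower and CBLB higher in S80A cells after LPS. Both were listed for the S80A line only, PTPN6 through a fall and CBLB through a rise with LPS. Such a listing can by itself favour these differences. Of 18, 4 rose and 1 fell in WT cells, against 5 up and 3 down in the S80A line, in the authors' deposited table, with medians of 1.12 and 1.39 among those listed. At 3 hr 2 of 9 listed members were higher and 3 lower in S80A cells by limma, beside 30.1% and 17.7% of all listed genes, with a median difference of -0.01 against 0.19 over all listed genes. PTPN6, the phosphatase SHP-1, was lower in S80A cells, at -2.10 ± 0.19 log2 (SE, limma adjusted p = 0.000293), at 367 ± 63.0 against 1558 ± 35.9 scaled reads. CBLB, a ubiquitin ligase that restrains receptors, was higher by 2.41 ± 0.31 log2 (SE, limma adjusted p = 0.000899) and by 1.94 at 0 hr (0.0159). PTPN1, a phosphatase of JAK2 and TYK2, was lower at -0.89 (limma adjusted p = 0.0262). SOCS6, of the same family as SOCS1 and SOCS3, was higher at 0.67 (0.0178) while it fell after LPS in each genotype by the authors' deposited table. The calls of PTPN1 and SOCS6 were each lost under 5 of 15 alternatives. USP18, which restrains the interferon receptor, was at -0.87 (limma adjusted p = 0.0553) and PTPN2 at -0.01 (0.967). CISH, another member of the SOCS family, was chosen after its values were seen and was listed for the S80A line only. CISH was lower in S80A cells at both times, at 18.4 ± 14.3 against 110 ± 18.6 scaled reads at 0 hr (limma adjusted p = 0.0154) and at 73.0 ± 31.3 against 232 ± 54.9 at 3 hr (0.00493).

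Of 13 other IL-10 family cytokines and receptors, IFNL1, an interferon lambda gene, alone was listed, and it rose in each genotype by the authors' deposited table. IFNL1 had no reads at 0 hr in either genotype, and was at 7.21 ± 1.86 in WT and 15.0 ± 4.94 scaled reads in S80A cells at 3 hr (limma adjusted p = 0.0715).

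Of 22 genes known to be raised by IL-10 in macrophages, 7 rose and 3 fell in WT cells, against 8 up and 1 down in the S80A line, in the authors' deposited table. Medians of those listed were 2.00 and 2.67. At 3 hr 4 of 11 were higher and 1 lower in S80A cells by limma (30.1% and 17.7% of all listed genes), with a median difference of 0.15 against 0.19 over all. MERTK, with which macrophages take up dying cells, fell after LPS in each genotype by the authors' deposited table. It stood higher in S80A cells at 3 hr, at 483 ± 74.3 against 77.0 ± 10.2 scaled reads (limma adjusted p = 0.000267), and it was higher at 0 hr already (1.22 log2, 0.00581). HMOX1, the haem-degrading enzyme, was listed for WT cells only, through a fall with LPS that can by itself favour a higher S80A level. HMOX1 was at 3258 ± 1373 in S80A against 742 ± 265 in WT cells (limma adjusted p = 0.00293), and it was higher by 0.90 log2 at 0 hr (0.01). IL1RN, the IL-1 receptor antagonist, went the other way, at 7801 ± 4388 in S80A against 18764 ± 1787 scaled reads in WT cells (limma adjusted p = 0.0301), a call lost under 3 of 15 alternatives. BCL3, a partner of p50 in the nucleus, was at 4467 ± 727 against 3710 ± 103 (limma adjusted p = 0.259), and TNIP3, an NF-κB inhibitor with no reads at 0 hr, at 1469 ± 986 against 1162 ± 136 (0.841).

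Of 23 known regulators of IL10 transcription, 10 rose and 1 fell in WT cells, against 10 up and 2 down in the S80A line, in the authors' deposited table, with medians of 2.44 and 2.29. At 3 hr 6 of 13 were higher and 1 lower in S80A cells by limma, where 30.1% and 17.7% of all listed genes were, and the median difference was 0.62 against 0.19. The list does not record which genes raise and which lower IL10, and nothing is read from these counts. IRF4, a factor of lymphoid and myeloid differentiation, was at 225 ± 118 in S80A and 16.6 ± 5.12 scaled reads in WT cells (limma adjusted p = 0.000646). MAF, a direct activator of IL10, fell after LPS in each genotype by the authors' deposited table and was higher in S80A cells by 1.13 ± 0.19 log2 at 3 hr (SE, limma adjusted p = 0.0023) and by 1.18 at 0 hr (0.0151). DUSP1, a phosphatase that ends p38 signalling, was higher by 0.94 (limma adjusted p = 0.0122), a call lost under 2 of 15, and by 1.99 before LPS (0.00285). MAP3K8, the kinase TPL2, which p105 holds inactive and which activates ERK, was lower at 3156 ± 1149 against 5865 ± 378 (limma adjusted p = 0.0164), a call lost under 4 of 15 alternatives. NFKB1, the gene named in the genotype label, was at 23198 ± 4621 and 23290 ± 713 scaled reads at 3 hr in S80A and WT cells (limma adjusted p = 0.922). A gene count cannot show the S80A change, so it gives no check of the labels. IRF1 differed by 0.30 (limma adjusted p = 0.25).

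Of 27 cytokines that signal through JAK and STAT, 12 rose and none fell in each genotype in the authors' deposited table. The medians of those listed were 5.72 in WT and 5.13 in S80A cells. They were 6.06 and 5.76 with the 3 genes without reads at 0 hr in the genotype at a lower bound. These genes were CSF2, CSF3 and IL12B in WT and CSF2, IL6 and IL12B in S80A cells, so the bounded medians replace different genes. At 3 hr 4 of 12 were higher and 4 lower in S80A cells by limma, against 30.1% and 17.7% of all listed genes. Their median difference was -0.65 log2 at 3 hr and -1.42 in the LPS response, where all genes tested had 0.19 and 0.0043. IL6, which SOCS3 restrains, was at 272 ± 69.2 in S80A and 1538 ± 188 scaled reads in WT cells (limma adjusted p = 0.000373). IL23A was at 1339 ± 1225 and 10184 ± 2439 (limma adjusted p = 0.00267). TSLP was higher in S80A cells, at 1131 ± 503 against 78.5 ± 16.8 (limma adjusted p = 0.000353), and already at 0 hr, at 115 ± 66.5 against 10.3 ± 3.91 (0.00957). IFNB1, the trigger of the interferon loop that SOCS1 restrains, was at 208 ± 36.0 and 259 ± 107 (limma adjusted p = 0.636), and IL7 at 107 ± 51.1 and 213 ± 62.4 (0.0759). In the LPS response 1 of 12 was called larger, CSF2 (4.76 log2, limma adjusted p = 0.0148, named after its value was seen), and 1 smaller, IL6. Of all genes tested for the response, 2.82% were called larger and 2.18% smaller.

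Of 25 receptors restrained by SOCS proteins, 9 rose and 3 fell in WT cells, against 8 up and 2 down in the S80A line, in the authors' deposited table, with medians of 1.92 and 2.06. At 3 hr limma called 6 of 14 higher and 1 lower in S80A cells, against 30.1% and 17.7% of all listed genes, and their median difference was 0.51 against 0.19. OSMR, the oncostatin M receptor, was listed for WT cells only. It was at 379 ± 206 in S80A against 1.94 ± 1.71 scaled reads in WT cells at 0 hr (limma adjusted p = 0.00423), and at 435 ± 217 against 28.2 ± 14.3 at 3 hr (limma adjusted p = 0.00104). IFNGR2, a chain of the interferon gamma receptor, was at 19657 ± 1045 against 7580 ± 689 (limma adjusted p = 0.000599), and it was higher by 0.74 log2 at 0 hr (0.0127). IL2RA, without reads at 0 hr, stood at 72.2 ± 26.9 against 22.2 ± 4.55 (limma adjusted p = 0.00681). LIFR, IL7R and IL15RA differed by -0.69, 0.78 and 0.56 log2 (limma adjusted p = 0.168, 0.0727 and 0.108).

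**Figure D5:**
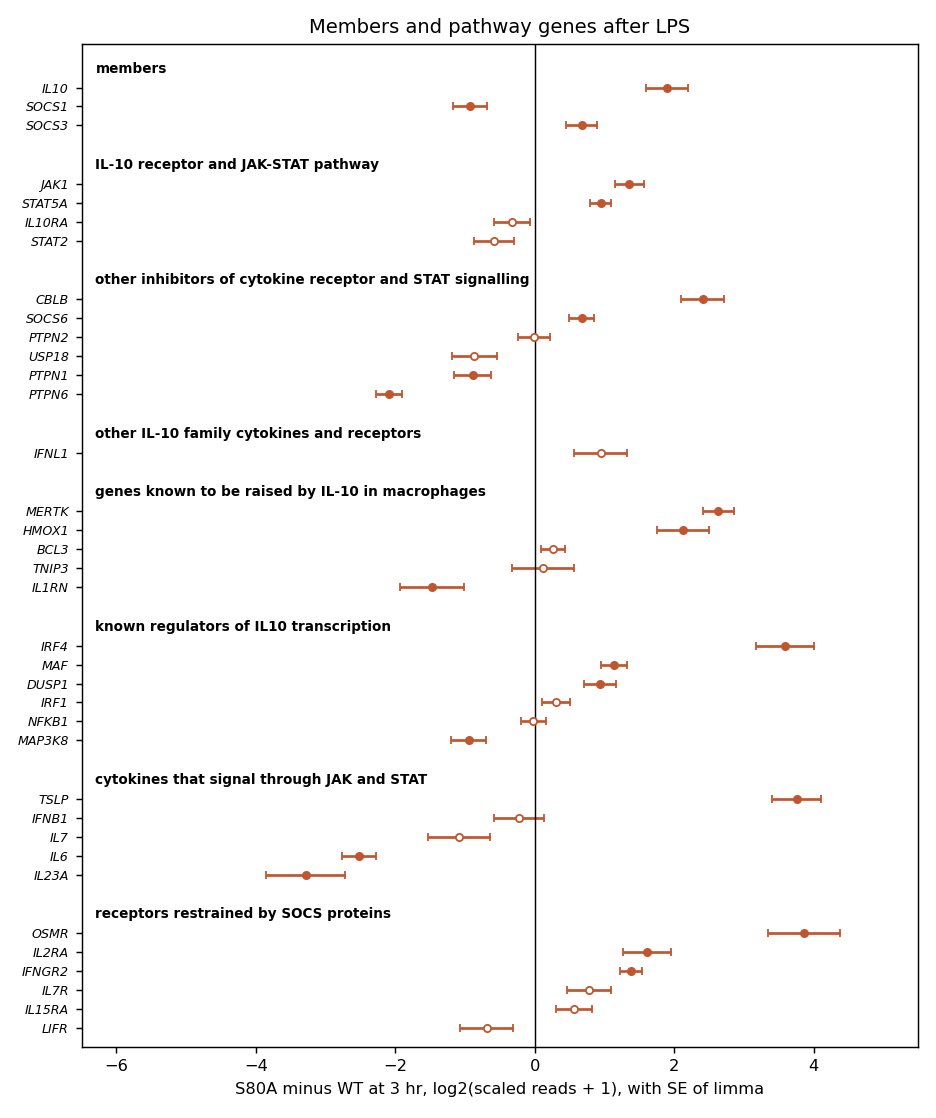
Difference S80A minus WT at 3 hr in log2(scaled reads + 1), with the limma SE, for the 3 genes and for the genes reported by name from each list; filled points have an adjusted p under 0.05. Among the filled points, IL10 (1.90) and SOCS3 (0.67) are positive. So are JAK1, STAT5A, CBLB, SOCS6, MERTK, HMOX1, IRF4, MAF, DUSP1, TSLP, OSMR, IFNGR2 and IL2RA. SOCS1 (-0.93) is negative, as are PTPN1, PTPN6, IL1RN, MAP3K8, IL6 and IL23A. JAK1, CBLB and PTPN6 were listed for the S80A line only, and HMOX1 and OSMR for WT cells only.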

How the data were processed

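Poly(A) RNA of THP-1 cells was sequenced as stranded single-end libraries, per the labels' protocols. DESeq2, HTSeq, Cuffdiff, StringTie, HISAT and FastQC, with the GRCh38 build, appear in the submitters' processing notes; their roles, versions, strand setting and annotation are not given there. The authors deposited 2 tables (2335 and 2508 genes, adjusted p under 0.01 and absolute log2 over 1), each with a log2 fold change, a p-value and a signal per library. The deposited signal is whole reads over a size factor (100% of values whole within 0.01 reads). Members and lists were chosen with earlier results of these data known. From each list, up to 4 genes with the largest absolute WT log2 fold change in the authors' deposited table (S80A where none is in the WT table) and up to 2 with the smallest p at 3 hr were named, and for each member the 3 most alike genes by each of 2 measures. A gene that this rule names is not reported here. limma 3.58.1 (R 4.3.3, pseudocount 1, spread modelled with a trend) was fitted with Benjamini-Hochberg adjustment. Alternatives were edgeR 4.0.16 and DESeq2 1.42.0 on whole reads, other pseudocounts, filters and scalings, no trend, other sample sets, the replicate block and leaving out each library; removing S80A replicate 1 at both times was added after the data were seen. The fits were tested on simulated data with the same spread for all genes and no outlying library. That test does not cover the differences between replicates seen here. Same-numbered WT and S80A libraries deviated together at 0 hr (r from 0.188 to 0.259 over 3281 genes), as did 0 hr and 3 hr libraries within WT (0.153 to 0.343) and S80A cells (0.196 to 0.299), so numbers pair these by the data, not the labels; between genotypes at 3 hr r was 0.064 to 0.196. No replicate pair agreed within sampling noise (chi-square per gene from 8.79). With 3 libraries a group, and 31 to 119 reads over a group for IL10 and SOCS1 at 0 hr, precision is limited.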

Additional observations from a re-analysis of the deposited data

Results flagged for a closer look

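The LPS response differed between genotypes, by the limma interaction term, for IL10 and for 10 other genes named in the text. IL10 rose further in S80A cells, by 2.97 log2 (limma adjusted p = 0.0071). MERTK fell less in S80A cells, with a difference of 1.41 log2 (limma adjusted p = 0.0148, 0.000196 to 0.0496 over 22 alternatives). IL6 rose less, with a difference of -2.24 (limma adjusted p = 0.0134, 0.000503 to 0.893), a call lost under 4 of the 22, edgeR (-0.37) and DESeq2 (-1.72) among them. IRF4 rose further, by 3.67 (limma adjusted p = 0.0263, 0.000892 to 0.295), a call lost under 10 of the 22. At 0 hr IRF4 was at 0.85 ± 0.87 scaled reads in WT and 1.05 ± 1.82 in S80A cells, and IL6 at 0.27 ± 0.46 and 0. The sizes of the IRF4 and IL6 differences therefore depend on the pseudocount. MAP3K8 rose less, with a difference of -1.48 (limma adjusted p = 0.0224, 0.00124 to 0.064), a call lost under 7. CSF2 rose further, by 4.76 (limma adjusted p = 0.0148). CSF2 had no reads at 0 hr in either genotype and 16.0 ± 18.7 scaled reads in WT cells after LPS. Its difference therefore equals that after LPS and depends on the pseudocount. Of the genes named for their likeness to a member, ABTB2 (2.52, limma adjusted p = 0.000417) and KCNN2 (2.07, 0.00157) rose further in S80A cells, and NFKB2 (-1.30, 0.0369) and SHROOM3 (-5.03, 0.0224) rose less; they were picked for that likeness, which their response is part of. SHROOM3 had a mean of 1.13 scaled reads in WT cells at 0 hr, so its size is uncertain. RASSF5, a neighbour of IL10, rose further by 1.09 (limma adjusted p = 0.0381). For CSF2, ABTB2, KCNN2, NFKB2, SHROOM3, RASSF5, PTPN6 and OSMR no range of the response over alternatives is given.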

How the results depend on the processing

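The IL10 differences in the LPS response and at 3 hr kept their call under the 22 and 15 alternatives run, and no difference of IL10, SOCS1 or SOCS3 changed sign. The count of genes called for the response was 78, and 122 with a pseudocount of 8, 155 by DESeq2, 130 with the replicate block, 508 over all genes in either table, 218 without S80A replicate 1 at both times and 39 to 136 leaving out 1 library. With the replicate block no call of the 3 genes changed (IL10 response 2.97, adjusted p = 0.00673), and between genotypes at 3 hr the same-numbered libraries did not all correlate above 0.1. At 0 hr the count was 1016, and 519 to 1207 leaving out 1 library: it was 607, 539 and 519 without WT replicates 1, 2 and 3, and 539 without S80A replicate 2. For SOCS1 the response was -2.32 by DESeq2, -2.75 without S80A replicate 1 at both times and -2.75 to -1.49 leaving out 1 library. SOCS1 was 0.56 to 1.82 at 0 hr and -1.11 to -0.76 at 3 hr leaving out 1 library, and -0.93 at 3 hr in the fit of all 12 libraries. IL10 at 0 hr was -1.08 in that fit and -1.49 to -0.78 leaving out 1 library. SOCS3 at 0 hr was 0.69 with upper quartile scaling, 0.71 by edgeR and 0.74 to 1.02 leaving out 1 library, and at 3 hr 0.27, 0.47, 0.67 without a trend in the spread and 0.54 to 0.86. Uncalled differences at 3 hr changed sign with upper quartile scaling for TNIP3 (-0.28), BCL3 (-0.14) and IRF1 (-0.10), by DESeq2 for PTPN2 (0.0107), and leaving out 1 library for PTPN2 (-0.18 to 0.19), TNIP3 (-0.39 to 0.60), NFKB1 (-0.18 to 0.0900) and IFNB1 (-0.63 to 0.0043). Beyond the construction of each alternative, the cause was not tested. IL10 and SOCS1 at 0 hr rest on few reads, and SOCS1 there also varied between S80A libraries.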
